A study of Mus musculus with 8 samples.

Results

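A set of 47 protein-coding genes were read in WT Lewis lung carcinoma (LLC) cells and were close to silent in FIH-KO cells. Members were chosen by their raw read counts, and a gene was one when its counts summed to 12 or less over the 4 FIH-KO libraries and averaged 20 or more over the 4 WT libraries. Vldlr and Peg3 were left out by the rule. These limits gave 47 of 53700 genes in the count table, of which 21899 were protein-coding and 10683 of those reached a WT mean of 20 counts. The same limits applied the other way, silent in WT and read in FIH-KO cells, gave 37 genes. Because the contrast between genotypes chose the members, their loss in FIH-KO cells is a description and was not tested. The oxygen response within WT cells is a separate contrast. The rule touched it through the WT mean, and through the FIH-KO counts, which entered the estimate of spread shared by all 8 libraries.

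LLC is a mouse lung carcinoma line that grows in C57BL/6 mice. FIH (factor inhibiting HIF) is encoded by Hif1an. The FIH-KO cells came from these cells by CRISPR/Cas9, with a guide against exon 2 of Hif1an and dilution to single cells, and the sources used here do not say whether the sequenced RNA came from 1 clone or several. Cells of each genotype spent 16 hours in normoxia, which was 21% O2, or in hypoxia, which was 1% O2, giving 4 groups of 2 libraries (WT normoxia, WT hypoxia, FIH-KO normoxia and FIH-KO hypoxia). Nothing states that the 2 libraries of a group came from separate cultures, so p-values measure the spread between these libraries, which may be technical. In all library lists that follow, the order is normoxia replicate 1, normoxia replicate 2, hypoxia replicate 1 and hypoxia replicate 2.

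Cells sense oxygen through hydroxylases that act on the HIF transcription factors. FIH hydroxylates an asparagine of HIF-α and so blocks its binding of coactivators, while the prolyl hydroxylases mark HIF-α for degradation. In low oxygen HIF binds hypoxia response elements with the core ACGTG or GCGTG and raises genes of glycolysis, angiogenesis and mitophagy.

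Library totals ran from 14519731 to 18177016 counts, and normalisation factors from 0.982 to 1.02. Hif1an was read at 1316, 1389, 1609 and 1231 counts in WT cells and at 584, 673, 729 and 784 in FIH-KO cells, lower in every FIH-KO library but not absent. Its own oxygen response in WT cells was a log2 fold change of 0.06 (SE 0.11, adjusted p = 0.711, edgeR quasi-likelihood test). Of the markers checked, all 4 mesenchymal genes and 3 of 5 epithelial genes reached 1 CPM (the read count scaled by library size) as a mean over the 4 WT libraries, but Epcam was at 0 in all libraries. None of 6 lung lineage markers, 5 leukocyte markers or 3 endothelial markers reached that mean, and Nkx2-1, Sftpc and Sftpa1 were at 0. Cdh5, an endothelial cadherin named after its counts were seen, came nearest at 2, 1, 35 and 18 counts in WT cells. The labelled lung origin thus had no lung lineage marker behind it in the RNA.

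The members were genes of low level in WT cells. Their mean over the 4 WT libraries ran from 20.25 to 186.5 counts with a median of 41, which is 1.24 to 11.5 CPM with a median of 2.53. The median of all WT-expressed protein-coding genes was 661.5 counts, and 78.9% of them lay above the highest member. In the 4 FIH-KO libraries together the members held 0 to 12 reads, with a median of 5. As a share of the WT level, the FIH-KO level ran from 0 to 13.5% with a median of 2.33%. For 44 of 47 members the lowest WT library lay above the highest FIH-KO library, and no FIH-KO library held more than 7 reads of any member. The rule chose the members on these same counts, so this separation follows largely from it and adds no evidence of loss. In bulk RNA, fewer cells that express a gene and less RNA per cell cannot be told apart.

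**Figure D1:**
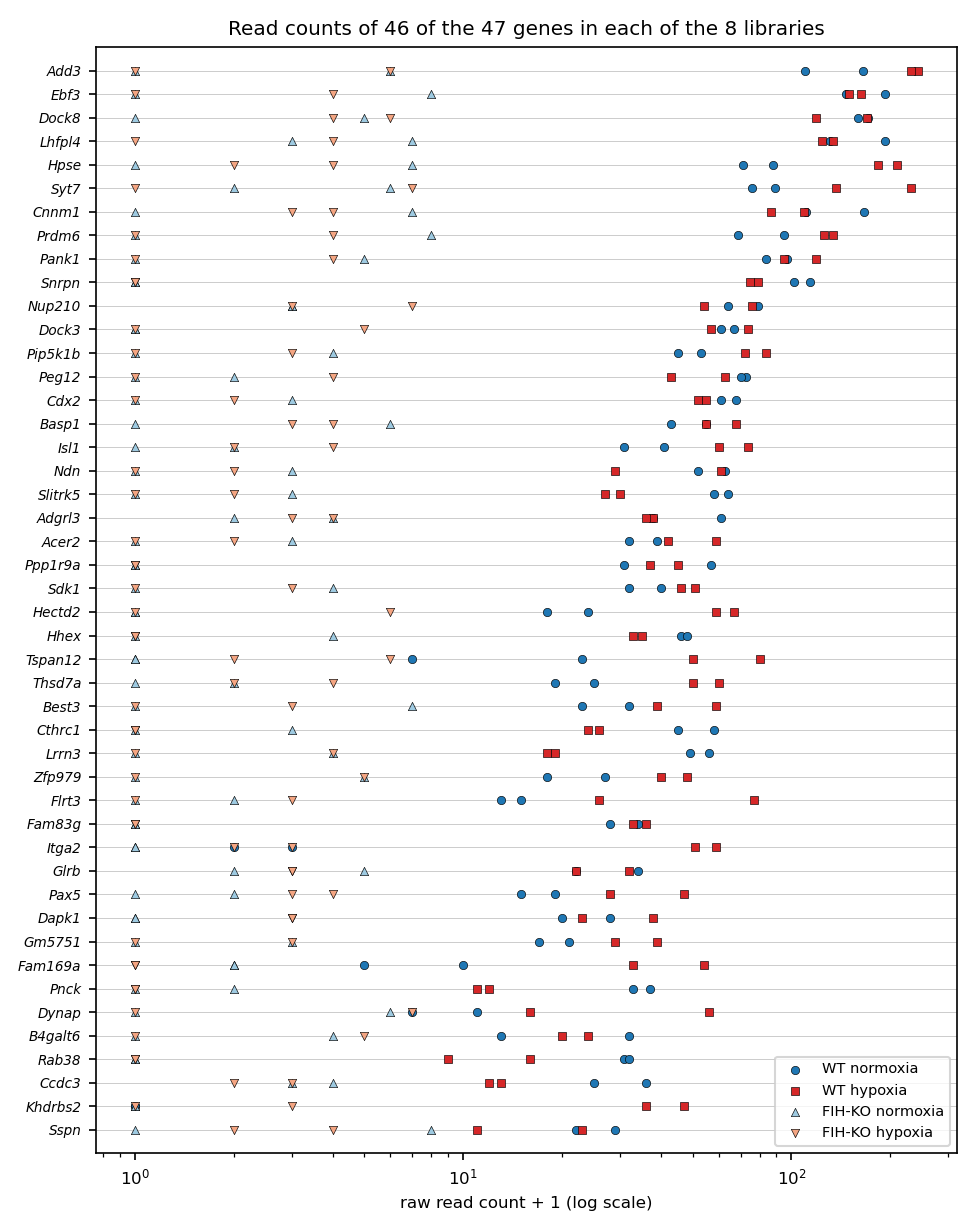
Raw read counts plus 1 (log axis) of 46 of the 47 genes, 1 row a gene, with 1 point for each of the 8 libraries. The FIH-KO points sit at 7 reads or fewer, and Itga2 and Khdrbs2 are as low in WT normoxia as in FIH-KO cells.

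By function, assigned after the members were known, 12 members encode proteins of the cell surface and matrix and 10 act in the cytoskeleton or in signalling. A further 7 encode transcription factors, 5 act in membrane transport, 4 are imprinted genes, 2 act on RNA or in the nuclear pore, and 7 fall in metabolism and other roles. Members of several unrelated lineages were present at a low level in one cell line, among them Cdx2, Pax5, Isl1 and Slitrk5. The groups are described in turn, after the promoters of 5 members.

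Promoter sequence is shown for 4 members that were higher in hypoxia, since the HIF core is the motif that bears on an oxygen response, and for Snrpn as the most highly expressed member with no FIH-KO read. Each runs from 250 bases before to 50 bases from the annotated start in GRCm39, on the strand of the gene, 5′ to 3′. Capitals mark ACGTG or GCGTG and, on the other strand, CACGT or CACGC. Itga2 lies at chr13:115068587-115068886 (minus strand), Khdrbs2 at chr1:32211516-32211815 (plus), Hectd2 at chr19:36531788-36532087 (plus), Hpse at chr5:100867533-100867832 (minus) and Snrpn at chr7:59654888-59655187 (minus).
Itga2: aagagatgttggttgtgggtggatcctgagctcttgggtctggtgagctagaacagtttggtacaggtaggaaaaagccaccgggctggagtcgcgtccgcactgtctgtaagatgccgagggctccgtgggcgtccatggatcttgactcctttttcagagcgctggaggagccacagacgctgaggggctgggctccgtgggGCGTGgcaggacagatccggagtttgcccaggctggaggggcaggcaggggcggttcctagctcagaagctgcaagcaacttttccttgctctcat
Khdrbs2: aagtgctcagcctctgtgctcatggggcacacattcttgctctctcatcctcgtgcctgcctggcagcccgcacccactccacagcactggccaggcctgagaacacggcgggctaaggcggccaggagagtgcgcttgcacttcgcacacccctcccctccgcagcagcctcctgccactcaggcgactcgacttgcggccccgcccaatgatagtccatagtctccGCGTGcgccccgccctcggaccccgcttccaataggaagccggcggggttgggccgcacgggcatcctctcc
Hectd2: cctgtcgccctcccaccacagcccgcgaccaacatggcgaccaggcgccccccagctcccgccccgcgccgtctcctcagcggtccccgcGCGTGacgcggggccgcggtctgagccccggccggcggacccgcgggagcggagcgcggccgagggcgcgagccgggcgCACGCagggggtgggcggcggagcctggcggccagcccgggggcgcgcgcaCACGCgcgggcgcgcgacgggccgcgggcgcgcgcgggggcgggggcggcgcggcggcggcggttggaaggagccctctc
Hpse: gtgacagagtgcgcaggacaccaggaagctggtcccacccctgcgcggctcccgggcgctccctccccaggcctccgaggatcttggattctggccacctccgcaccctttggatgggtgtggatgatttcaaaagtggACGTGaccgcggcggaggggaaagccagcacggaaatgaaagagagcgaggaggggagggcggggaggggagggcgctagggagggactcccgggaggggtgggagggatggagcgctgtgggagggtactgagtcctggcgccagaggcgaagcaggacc
Snrpn: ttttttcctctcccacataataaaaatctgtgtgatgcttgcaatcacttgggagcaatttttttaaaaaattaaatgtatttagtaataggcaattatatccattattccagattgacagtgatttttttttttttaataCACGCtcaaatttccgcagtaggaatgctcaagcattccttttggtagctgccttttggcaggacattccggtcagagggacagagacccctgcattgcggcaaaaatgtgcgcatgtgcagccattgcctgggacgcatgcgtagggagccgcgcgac
The core was found 46 bases before the start of Itga2, 22 bases before that of Khdrbs2 and 111 bases before that of Hpse. Hectd2 held 3, and Snrpn 1 on the other strand.

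Such a core is common in promoters. It stood on either strand in 29 of 47 member promoters (61.7%) and in 63.9% of the 10631 other WT-expressed promoters, where a CACGTG counts as 1 promoter with a match. Among members it was in 6 of 9 that were higher in hypoxia, 4 of 5 that were lower and 19 of 33 that were not called. Flrt3, Syt7 and Tspan12 were higher in hypoxia and had none in this window. Of the 53 tested genes of the HIF target list, 40 (75.5%) held one. A match is a description of letters and shows no binding.

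The base composition of the promoters was also near that of other genes. The median GC content was 59.3% in members and 58.7% in the others, and the median ratio of observed to expected CpG was 0.674 against 0.737. A ratio of 0.6 or more was found for 61.7% of members and 70.2% of the others. The printed Hectd2 promoter held 58 CpG and that of Snrpn 10, while the promoters of Ndn and Ppp1r9a held 0. No methylation was measured. The members were long genes by comparison, with a median span of 64510 bases against 26790 in the other WT-expressed genes. The median exon length was 7449 bases against 6648. Those other genes were not matched to the members by WT level.

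The imprinted members were Snrpn, Ndn, Peg12 and Ppp1r9a, and all 4 held few or no reads in FIH-KO cells. Imprinted genes are transcribed from 1 parental copy, set by DNA methylation that a cell inherits. Of 47 genes on the imprinted list in the table, 23 reached a WT mean of 20 counts, and 4 of these (17.4%) were members, against 0.44% of all WT-expressed protein-coding genes. The list was chosen with earlier results of these data known, so the share is given without a test.

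Snrpn (chr7:59630427-59820763, minus strand) encodes SmN, a core protein of spliceosomal particles. It held 101, 113, 74 and 78 counts in WT cells and 0 in each FIH-KO library. Against a floor of 3 counts over the 4 FIH-KO libraries, it was at least 125-fold lower in FIH-KO cells. Snurf, which overlaps it, was at 0 in every library, so reads of the shared transcript could have been counted to Snrpn or dropped as ambiguous.

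Ndn (chr7:61995473-62000010, plus strand) encodes necdin, a MAGE family protein of neurons, and was read at 62, 51, 60 and 28 counts in WT cells and at 2, 0, 1 and 0 in FIH-KO cells. Peg12 (chr7:62111619-62114258, minus strand) encodes a FRAT family protein that binds GSK3. It was read at 72, 69, 62 and 42 counts in WT cells and at 1, 0, 3 and 0 in FIH-KO cells. These 2 genes lie 111609 bases apart, the only members within 200 kb of each other. Mkrn3, between them and named after its counts were seen, showed the same pattern below the WT limit, at 10, 16, 12 and 15 counts in WT cells and 0 in each FIH-KO library.

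Ube3a, on the same stretch of chromosome 7, was read at 2238, 2387, 2922 and 2694 counts in WT cells and at 96.6% of that level in FIH-KO cells. Loss of reads thus did not extend over all genes there. Ppp1r9a (chr6:4902745-5165667, plus strand) encodes neurabin, an actin-binding scaffold of protein phosphatase 1. It held 30, 56, 44 and 36 counts in WT cells and 0 in each FIH-KO library, at least 56.0-fold lower. Its imprinted neighbour Peg10 stood at 53.0% of WT in FIH-KO cells and Sgce at 100%.

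The 7 transcription factors were Ebf3, Prdm6, Cdx2, Isl1, Hhex, Pax5 and Zfp979. Ebf3, an EBF family factor of neural and mesodermal development (chr7:136795402-136916218, minus strand), was the highest of them by counts, at 146, 192, 149 and 162 in WT cells and 7, 0, 3 and 0 in FIH-KO cells. Prdm6, a PR domain repressor of smooth muscle, was read at 68, 94, 133 and 125 counts in WT cells and at 7, 0, 3 and 0 in FIH-KO cells. Cdx2, the homeobox factor of trophectoderm and intestine, held 60, 67, 54 and 51 counts against 2, 0, 0 and 1.

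Isl1 is a LIM homeobox factor of heart, motor neurons and pancreas, Hhex a homeobox factor of liver and endothelium, Pax5 the paired box factor of B cells and Zfp979 a KRAB zinc finger protein. Isl1 held 30, 40, 73 and 59 counts in WT cells, and Pax5 18, 14, 46 and 27. Hhex (chr19:37423258-37429179, plus strand) held 45, 47, 34 and 32 counts in WT cells and 3 reads in 1 FIH-KO library. Per kilobase of exon, Prdm6 (1.67 CPM per kb) and Cdx2 (1.58) ranked next after Hpse, the highest member (2.37). Zfp979 was the only member among 328 WT-expressed genes on a list of KRAB and other zinc finger genes matched by symbol (Zfp, Zkscan, Zscan).

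The cytoskeleton and signalling group held the member with the most reads. Add3, gamma-adducin, which caps actin and ties it to spectrin (chr19:53128862-53235830, plus strand), was read at 109, 164, 242 and 231 counts in WT cells and at 5, 0, 5 and 0 in FIH-KO cells. Dock8, an exchange factor for Cdc42 known from leukocytes (chr19:24976865-25179796, plus strand), held 170, 159, 169 and 118 counts against 4, 0, 5 and 3. Dock3, a Rac exchange factor of neurons, held 66, 60, 73 and 56 against 0, 0, 4 and 0. In all 3 genes every WT library lay far above every FIH-KO library.

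Others in this group included Pip5k1b, a kinase that makes phosphatidylinositol 4,5-bisphosphate, Dapk1, a death-associated kinase, Basp1 of growth cones, and Fam83g, a partner of casein kinase 1. Fam83g held 33, 27, 35 and 32 counts in WT cells and 0 in each FIH-KO library, at least 43.3-fold lower. Pip5k1b (chr19:24271954-24533630, minus strand) held 44, 52, 83 and 71 counts in WT cells against 3, 0, 2 and 0. Rab38 and Pnck, also of this group, are described with the oxygen response.

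In membrane transport, Lhfpl4, a partner of GABA-A receptors, was read at 130, 192, 133 and 123 counts in WT cells and at 6, 2, 3 and 0 in FIH-KO cells. Cnnm1, of a family linked to magnesium transport (chr19:43428747-43485673, plus strand), held 166, 110, 108 and 86 counts against 6, 0, 2 and 3. Glrb, the beta subunit of the glycine receptor, and Best3, a chloride channel, were lower, with no more than 58 counts in any WT library. Synaptotagmin 7 (Syt7) completed the group.

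Pank1, a pantothenate kinase of coenzyme A synthesis (chr19:34784339-34856865, minus strand), was the highest metabolic member, at 83, 96, 118 and 94 counts in WT cells and 4, 0, 3 and 0 in FIH-KO cells. Acer2, a ceramidase of the Golgi, and B4galt6, lactosylceramide synthase, both act on sphingolipids. Acer2 held 31, 38, 58 and 41 counts in WT cells and B4galt6 31, 12, 23 and 19. Hectd2, a HECT ubiquitin ligase, and Dynap, Fam169a and Gm5751 were placed with them. Nup210, a membrane nucleoporin of the nuclear pore, held 78, 63, 75 and 53 counts in WT cells and 2, 2, 6 and 2 in FIH-KO cells.

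The 12 surface and matrix members included several adhesion proteins with leucine-rich repeats, known from neurons: Flrt3, Lrrn3 and Slitrk5. On a list of adhesion families matched by symbol, which did not hold Sdk1, they were 3 of 17 WT-expressed genes, against 0.44% of all WT-expressed protein-coding genes that were members. This was 1 of several family lists, and others of the surface and matrix held few or none. Members were 0 of 20 cadherins and protocadherins, 0 of 27 semaphorins and plexins, 0 of 10 Eph and ephrin genes, 0 of 13 collagens and 1 of 21 integrins and laminins. Adgrl3, an adhesion receptor that binds FLRT3, was read at 37, 60, 37 and 35 counts in WT cells and at 3, 1, 2 and 3 in FIH-KO cells. Sdk1, an immunoglobulin family adhesion protein, Sspn of the dystrophin complex and Cthrc1, a secreted collagen repeat protein, were the others not called in hypoxia.

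Oxygen response within WT cells was read by comparing hypoxia with normoxia in the fit over all 13933 tested genes, which all 47 members entered. The HIF response was present: of 53 HIF targets tested, 48 (90.6%) were higher in hypoxia at an adjusted p under 0.05 and 0 were lower (edgeR, with 0 lower at an unadjusted p under 0.05 and 0 by DESeq2). Vegfa was higher by 3.08 on the log2 scale (SE 0.17, adjusted p = 2.03e-06) and Ndrg1 by 3.97 (SE 0.25, adjusted p = 2.1e-06). Car9, lower in normoxia than most members, held 2, 2, 49 and 27 counts in WT cells. None of the 47 members was on this list of HIF targets.

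Of the members, 14 of 47 (29.8%) changed with oxygen, against 32.4% of all tested genes and 30.2% of protein-coding genes with a WT mean in the same range of counts. In the upward direction 9 members were called (19.1%; 16.9% of all genes), and 5 in the downward direction (10.6%; 15.5% of all genes). The median log2 fold change was 0.16 over the members and −0.0011 over all genes. Both hypoxia libraries lay above both normoxia libraries for 22 of the 47 members, against 35.2% of all genes. They lay below both for 13 of the 47, against 35.7%. In this edgeR fit the share of members called was near the background, and the calls were mixed in direction. DESeq2 called 8 members higher and 0 lower, with 2 lower at an unadjusted p under 0.05. Over all genes it called 2059 higher and 2067 lower.

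The WT limit itself favoured some of these members. A mean of 20 counts was met in both conditions by 34 members, of which 4 were higher in hypoxia and 1 was lower. For 8 members only the hypoxia mean reached 20, and 5 of them were higher, while for 5 members only the normoxia mean did, and 4 of them were lower. The calls are therefore given gene by gene and carry no weight as a count.

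**Figure D2:**
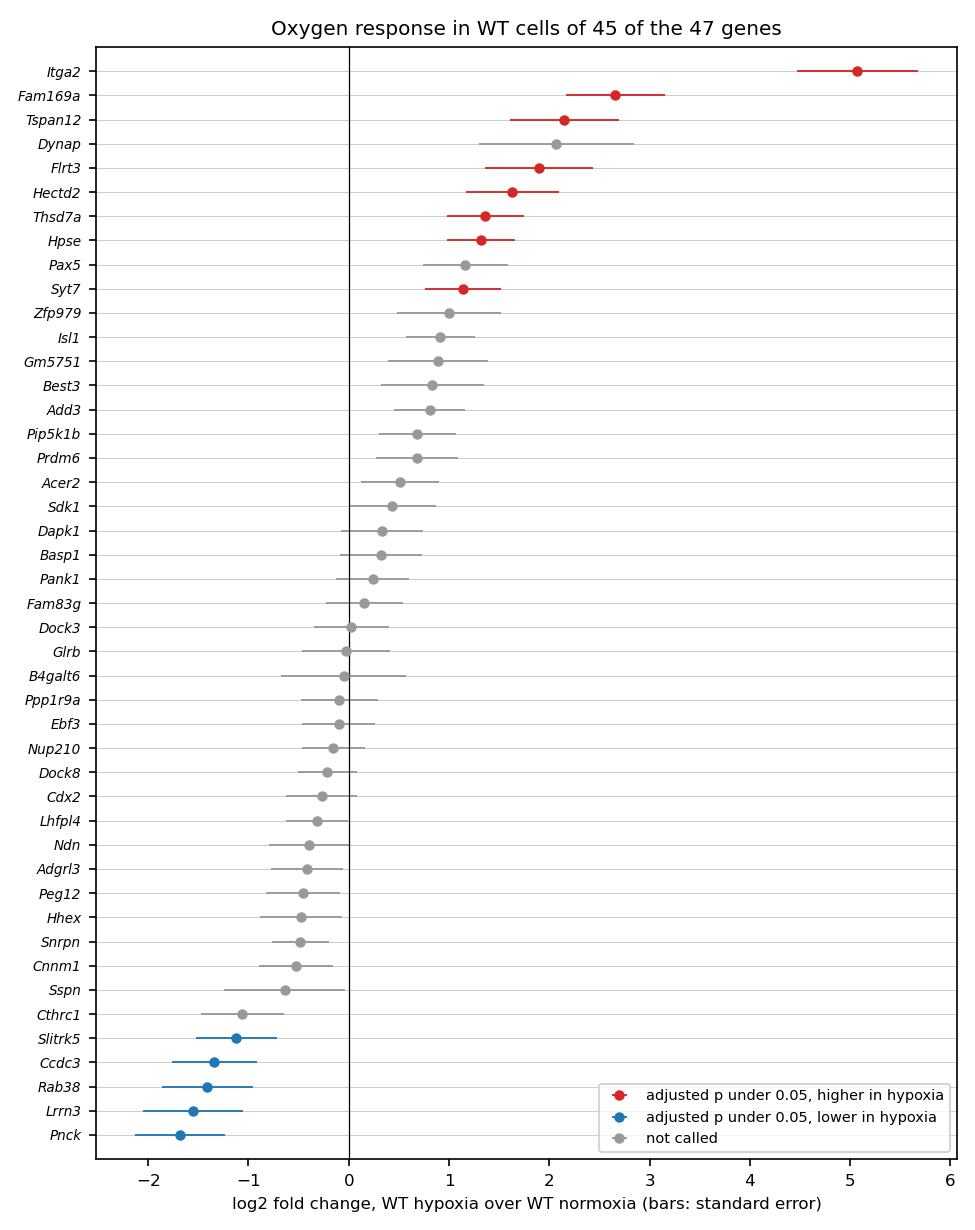
Log2 fold change of WT hypoxia over WT normoxia with its standard error for 45 of the 47 genes, in order of size. Khdrbs2, at 0 in both normoxia libraries, and 1 other gene are not drawn, and Itga2 has the highest value shown at 5.07.

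Itga2 and Khdrbs2 had the steepest rise, and both were read almost only in hypoxic WT cells. Itga2 encodes integrin alpha 2 of the collagen receptor (chr13:114969617-115068636, minus strand). It held 2, 1, 50 and 58 counts in WT cells and 0, 0, 1 and 2 in FIH-KO cells. The ratio of hypoxia to normoxia was 36.0, with a 95% exact interval of 12 to 177 that covers counting error only (adjusted p = 0.00014, edgeR). Itga1, the next gene, stood at 93.6% of WT in FIH-KO cells.

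Khdrbs2 encodes SLM1, a STAR family splicing regulator (chr1:32211766-32744703, plus strand). It held 0, 0, 46 and 35 counts in WT cells and 0, 0, 2 and 0 in FIH-KO cells. Against a floor of 3 counts over the 2 normoxia libraries it was at least 27.0-fold higher in hypoxia (adjusted p = 0.000337, edgeR). In normoxia both genotypes held at most 3 reads of each of these 2 genes, which met the rule through their hypoxic WT reads.

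Fam169a was read at 9, 4, 53 and 32 counts in WT cells, a log2 fold change of 2.66 (SE 0.50, adjusted p = 0.0022). In FIH-KO cells it held 1, 1, 0 and 0 counts. Itga2, Khdrbs2 and Fam169a were the only members called in edgeR whichever single library of the 8 was left out. All 3 reached the WT limit only through the hypoxia libraries, where they are high, so the rule favoured these calls.

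Tspan12, a tetraspanin and co-receptor of Norrin signalling (chr6:21771389-21852619, minus strand), held 22, 6, 79 and 49 counts in WT cells, a log2 fold change of 2.15 (SE 0.54, adjusted p = 0.0111). Both hypoxia libraries were above both normoxia libraries, which differed between themselves, and the FIH-KO libraries held 0, 0, 5 and 1. The call was lost without WT normoxia replicate 2 or WT hypoxia replicate 1, at 1.42 (adjusted p = 0.113) and 1.89 (adjusted p = 0.0902, edgeR). Flrt3, the adhesion protein that latrophilins bind, held 12, 14, 76 and 25 counts in WT cells and 1, 0, 2 and 0 in FIH-KO cells (log2 fold change 1.90, SE 0.54, adjusted p = 0.0174). One hypoxia library was far above the other, and without WT hypoxia replicate 1 or either WT normoxia library the call was lost, with values of 1.05, 1.81 and 1.92 and an adjusted p of up to 0.281.

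Hpse encodes heparanase, which cuts heparan sulfate of the matrix (chr5:100827350-100867582, minus strand). It was the member with the most reads per kilobase and held 70, 87, 209 and 183 counts in WT cells (log2 fold change 1.32, SE 0.34, adjusted p = 0.0116) and 6, 0, 3 and 1 in FIH-KO cells. Syt7, the calcium sensor of exocytosis (chr19:10366033-10430544, plus strand), held 88, 75, 230 and 136 counts in WT cells (log2 fold change 1.14, SE 0.38, adjusted p = 0.0359) and 5, 1, 6 and 0 in FIH-KO cells.

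Hectd2 (chr19:36532033-36598535, plus strand) held 17, 23, 66 and 58 counts (log2 fold change 1.63, SE 0.46, adjusted p = 0.0198), and in FIH-KO cells 0, 0, 5 and 0. Thsd7a, a thrombospondin type 1 domain protein, held 18, 24, 59 and 49 counts in WT cells and 1, 0, 3 and 1 in FIH-KO cells (log2 fold change 1.36, SE 0.38, adjusted p = 0.0176). In all 4 of Hpse, Syt7, Hectd2 and Thsd7a the hypoxia libraries were above both normoxia libraries. Each of these calls was nevertheless lost when any one of the 4 WT libraries was left out, with an adjusted p of up to 0.1 for Hpse, 0.247 for Syt7, 0.139 for Hectd2 and 0.141 for Thsd7a, while the log2 fold changes ran from 1.19 to 1.39, 0.84 to 1.35, 1.44 to 1.76 and 1.18 to 1.48 in that order.

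Lower values in hypoxia were found for 5 members. Pnck, a calcium/calmodulin-dependent kinase, held 32, 36, 11 and 10 counts in WT cells, a log2 fold change of −1.68 (SE 0.45, adjusted p = 0.0149). Lrrn3 held 55, 48, 17 and 18 counts (−1.55, SE 0.50, adjusted p = 0.032), and Slitrk5, a synaptic adhesion protein, 63, 57, 26 and 29 (−1.12, SE 0.40, adjusted p = 0.0498). In each of them both normoxia libraries were above both hypoxia libraries. In FIH-KO cells Pnck held 1, 0, 0 and 0 counts, Slitrk5 held 2, 0, 1 and 0, and Lrrn3 held 3, 0, 3 and 0.

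Rab38, a GTPase of melanosomes and of lung lamellar bodies, held 30, 31, 15 and 8 counts (−1.41, SE 0.45, adjusted p = 0.0361) and 0 in each FIH-KO library, at least 28.3-fold lower there. Ccdc3, a secreted coiled-coil protein, held 24, 35, 12 and 11 counts in WT cells (−1.34, SE 0.42, adjusted p = 0.0289) and 3, 2, 1 and 2 in FIH-KO cells. These 5 calls were lost without any one of the 4 WT libraries, with adjusted p of up to 0.102 for Pnck, 0.163 for Lrrn3, 0.203 for Rab38, 0.216 for Ccdc3 and 0.229 for Slitrk5. Their log2 fold changes stayed below 0, running from −1.76 to −1.64 for Pnck, −1.74 to −1.41 for Lrrn3, −1.81 to −1.16 for Rab38, −1.58 to −1.15 for Ccdc3 and −1.35 to −0.94 for Slitrk5. DESeq2 called 0 of the members lower, with 2 at an unadjusted p under 0.05, and 8 higher. Over all 13933 genes it called 2067 lower and 2059 higher.

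The other 33 members were not called, with log2 fold changes from −1.06 to 2.07 and adjusted p from 0.0521 to 0.971 (edgeR). Pax5 (1.16, adjusted p = 0.0521), Dynap (2.07, adjusted p = 0.0564) and Isl1 (0.91, adjusted p = 0.0598) were nearest to the threshold above 0. Dynap was read at 6, 10, 55 and 15 counts in WT cells, so 1 hypoxia library stood far above the other 3. Cthrc1 (−1.06, adjusted p = 0.0719), at 44, 57, 23 and 25 counts, was nearest below it. Add3, the member with the most reads, had a value of 0.81 (adjusted p = 0.104). Standard errors here ran from 0.28 to 0.77, so a change of the size of Syt7 could be missed in many of them.

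By function, against 16.9% higher and 15.5% lower over all genes, 5 of 12 surface and matrix members were higher and 3 lower. Of these 8, Itga2, Tspan12, Flrt3, Lrrn3 and Ccdc3 reached 20 counts only in the condition where they were high. None of the 7 transcription factors was called in the edgeR fit over all 8 libraries or by DESeq2, and 2 had an unadjusted p under 0.05, both higher. With only the 4 WT libraries in the edgeR fit, 4 of the 7 were called higher: Isl1 (adjusted p = 0.0207), Pax5 (0.0257), Prdm6 (0.0278) and Zfp979 (0.0304). That fit called 2890 of 13301 genes higher, more than the fit over all 8 libraries. Pax5 reached a mean of 20 counts only in hypoxia, so the WT limit favoured its call. None of the 4 imprinted genes was called by either tool or with the WT libraries alone, and none had an unadjusted p under 0.05. Their values were −0.48 for Snrpn, −0.45 for Peg12, −0.39 for Ndn and −0.10 for Ppp1r9a. In the cytoskeleton and signalling group 2 of 10 were lower and 0 were higher in the edgeR fit over all 8 libraries, with 1 higher at an unadjusted p under 0.05 and 0 by DESeq2. With the WT libraries alone in edgeR, Add3 (adjusted p = 0.00617) and Pip5k1b (0.0472) were called higher.

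Chromosome 19 carried 9 of the 47 members (19.1%), against 3.6% of all WT-expressed protein-coding genes. They included Syt7, Pip5k1b, Dock8, Pank1, Hectd2, Hhex, Cnnm1 and Add3, which spread along the chromosome that also carries Hif1an. These were 9 of 384 WT-expressed genes there (2.34%). The other chromosome 19 genes stood at a median of 73.7% of WT in FIH-KO cells, lower than all other chromosomes, among which chromosome 3 was nearest at 74.3% and the rest lay between 87.6% and 117.1%. Of the 9 members on chromosome 19, Syt7 and Hectd2 were higher in WT hypoxia and none was lower. Chromosome 6 carried 6 members, chromosome 7 carried 5, and chromosomes 8, 16 and 17 carried none. The part of gene dosage in the loss on chromosome 19 was not tested.

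**Figure D3:**
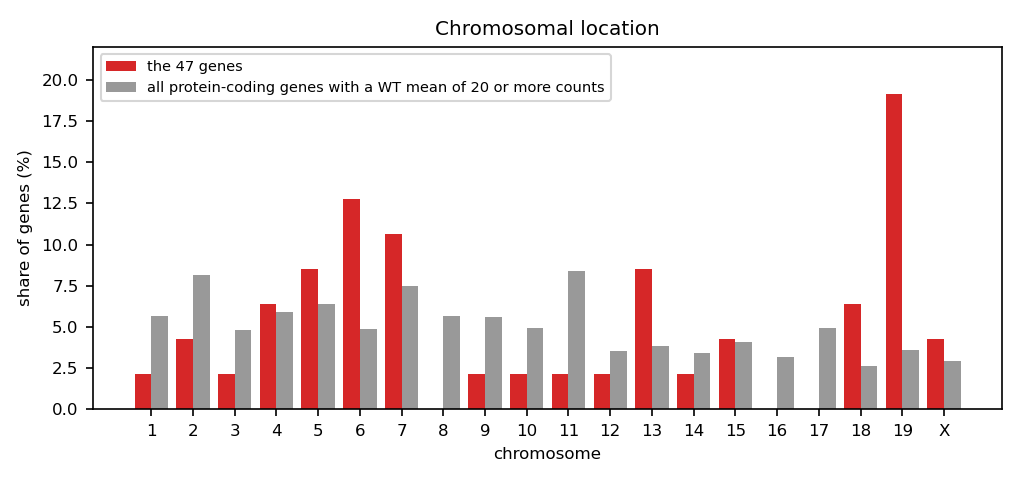
Share of genes on each chromosome in percent, for the 47 genes and for all protein-coding genes with a WT mean of 20 or more counts. Chromosome 19 has 19.1% of the 47 genes and 3.6% of the comparison genes.

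Flanking genes were the nearest WT-expressed protein-coding genes on each side that were not members, Vldlr or Peg3. Neighbours that met the rule were thus passed over, so these values cannot show whether members stood alone. Of 90 distinct flanking expressed genes, the median FIH-KO level was 91.1% of WT, against 99.0% for other WT-expressed genes, and 3 were under 25% of WT (3.33%, against 1.07%). All 47 members had at least 1 flanking gene at 50% of WT or more, for which no share over other genes was computed. Ndn and Peg12 were flanked by Ube3a and Klf13 in this count, since members were passed over and Mkrn3 fell below the WT limit. The 18 flanking genes on chromosome 19 had a median of 63.6%.

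The low neighbours were Smarca2, Flt3 and Lancl3. Smarca2, 1402654 bases from Dock8, encodes an ATPase of the SWI/SNF remodelling complex and was read at 113, 151, 160 and 136 counts in WT cells and at 11, 0, 3 and 0 in FIH-KO cells (2.44% of WT). Its sum lay just over the limit of the rule. Flt3, a receptor tyrosine kinase of blood progenitors 23460 bases from Cdx2, held 21, 27, 66 and 52 counts against 1, 5, 9 and 3 (10.8%). Lancl3, 318511 bases from Gm5751, stood at 20.7%.

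The reads that remained in FIH-KO cells were unequal between replicates. Summed over the 47 genes they came to 114 and 19 in normoxia replicates 1 and 2, and to 105 and 36 in hypoxia replicates 1 and 2. As a share of the WT level in the same oxygen these were 4.55%, 0.715%, 3.57% and 1.29%. More reads fell in the replicate 1 libraries than in the replicate 2 libraries for 36 members, fewer for 3 and the same number for 8. In both replicate 2 libraries 25 members were at 0, and in both replicate 1 libraries 6 were. The rule set the total over the 4 libraries and not its division between them.

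Read the other way, the 37 genes silent in WT cells held 53, 59, 86 and 64 reads in the 4 WT libraries, where neither replicate number was the higher in both oxygen conditions. The share of WT level was highest for Sspn, at 28, 21, 22 and 10 counts in WT cells and 7, 0, 3 and 1 in FIH-KO cells. The source of the replicate 1 reads was not tested.

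**Figure D4:**
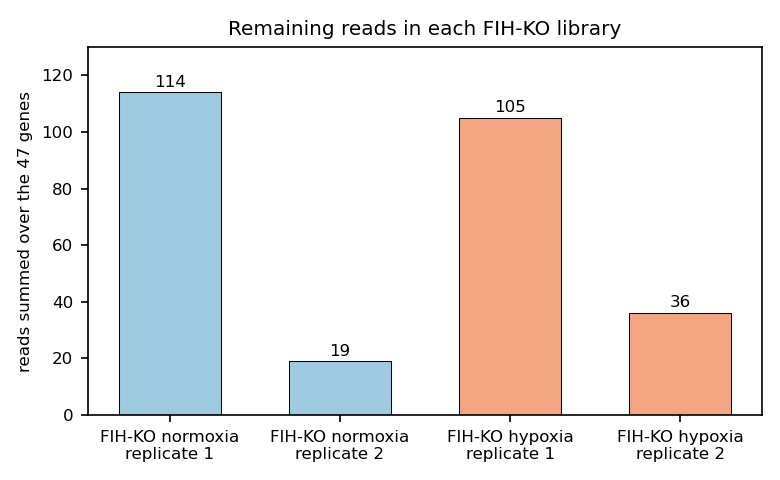
Reads summed over the 47 genes in each of the 4 FIH-KO libraries. The replicate 1 libraries held 114 and 105 reads and the replicate 2 libraries 19 and 36.

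The limits were not natural breaks in the data. Dock8, Syt7 and Nup210 were just inside the FIH-KO limit with 12 reads, and Adgrl2, Lratd2 and Ptgfr were just outside it with 13, at WT means of 257.25, 77.75 and 63.5 counts. Khdrbs2, Sspn and Ccdc3 were just inside the WT limit at 20.25, 20.25 and 20.5 counts, and Rab15, Nipal1 and Afap1l2 were just outside it at 18.5, 18 and 18, with 3, 11 and 4 reads in FIH-KO cells.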

How the data were processed

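RNA-Seq was performed on WT and FIH-KO LLC cells in normoxia and hypoxia, 2 libraries a group. The authors used STAR to align paired-end reads of stranded mRNA libraries to GRCm39 and HTSeq for counting reads in each gene, and the deposited values are these raw counts. The annotation release, strand setting and handling of multi-mapping reads are not given in the sources used here. The members and gene lists were chosen with earlier results of these data known. Counts were tested in R 4.3.3 with edgeR 4.0.16 (filterByExpr, TMM, quasi-likelihood fit over all 4 groups, Benjamini-Hochberg adjustment over 13933 genes, threshold 0.05), after testing on simulated data, with DESeq2 1.42.0 as an alternative. Positions, exon lengths and promoters came from GENCODE M39 on GRCm39, which held 97.97% of the identifiers and all 47 members, read with pysam 0.24.0 in Python 3.11.15. Levels per kilobase are CPM divided by exon length. Counts in every library are given for members called in WT hypoxia, the 12 highest by CPM, members within 200 kb of another and those next to a limit, others being shown as examples of their group. Other genes named are 7 HIF pathway genes and flanking genes, and genes of the imprinted region were added after their counts were seen. The values of 1 member are not reported here on their own.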

Additional observations from a re-analysis of the deposited data

How the results depend on the processing

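The number of members followed the limits of the rule. It was 20 with at most 4 FIH-KO reads, 80 with at most 24, 101 with a WT mean of 10 or more counts and 24 with a mean of 40 or more. Counts scaled to library size gave 45, single libraries left out 41 to 61, and FIH-KO replicate 2 alone (chosen after seeing the data) 66.

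Members called higher in WT hypoxia numbered 9, but 16 with the 4 WT libraries alone in the fit, 14 with WT and FIH-KO replicate 2 libraries (chosen after seeing the data), and 3 to 12 with 1 library left out. Members called lower numbered 5, but 0 by DESeq2 and 0 to 6 with 1 library left out. Over all genes the ranges with 1 library left out were 1086 to 2597 higher (2349 with all) and 1038 to 2846 lower (2160 with all). The median log2 fold change of the members turned to −0.0098 where 10 counts were required in every WT library, which left 41 members. Ppp1r9a ran from −0.47 to 0.31 with 1 library left out, above 0 without WT normoxia replicate 2, and Ebf3 from −0.3182 to 0.0537, above 0 without that library (0.0072) or WT hypoxia replicate 1 (0.0537). RLE and upper-quartile scaling each kept the counts at 9 and 5. Over all genes, the fit of the 4 WT libraries alone called 2890 of 13301 higher and 2770 lower. With WT and FIH-KO replicate 2 libraries it was 2667 of 14492 higher and 3122 lower. Calls over all genes thus also rose above those of the main fit in these 2 settings. In proportion, higher calls rose more among the members than over all genes. Lower calls, at 6 members in both settings, rose less.

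The main fit did not pair libraries by replicate number. Deviations of same-numbered libraries correlated at 0.0785 between WT normoxia and WT hypoxia and at −0.0104 to 0.193 in the other pairs of groups. Both FIH-KO replicate 1 libraries nevertheless held more remaining member reads than the replicate 2 libraries, so these correlations do not settle whether same-numbered libraries belong together. With the replicate block in the fit 10 members were higher and 5 lower, and 2381 and 2212 genes in all. With 2 libraries a group and members of 20.25 to 186.5 mean counts, changes under about the size of those called could be missed.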
